A study of Homo sapiens with 4 samples.

Results

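The 10 genes described here are non-coding hosts of small nucleolar RNAs (snoRNAs): GAS5, SNHG1, SNHG3, SNHG5, SNHG6, SNHG7, SNHG8, SNHG12, SNHG15 and ZFAS1. They were chosen by name, and all 10 were found among the 58870 genes of each table and passed the filter on low counts. The RNA was that of a human skin fibroblast line, BJ, in 4 libraries. Cells of 2 control libraries (replicates 1 and 2) were given DMSO, a solvent, and those of the other 2 were given 250 nM of a compound abbreviated as Dox in the labels. The series design gives an exposure of 24 hours and then 10 days in which the cells senesced, and the titles call the controls young and the Dox cells aged. The treatment protocol can also be read with the 24 hours last. No label names a genetic change. Nor does any state that replicates are independent cultures, and the p-values below then reflect the spread of these libraries alone, possibly a technical one. In RNA from a whole culture, fewer cells that express a gene and less of its RNA per cell cannot be told apart.

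A snoRNA guides the chemical modification or processing of ribosomal and other RNAs. Box C/D snoRNAs direct 2′-O-methylation and box H/ACA snoRNAs direct pseudouridylation, with a few members of either class acting in the cleavage of the ribosomal RNA precursor. Most human snoRNAs are cut out of the introns of a host gene, and the genes described here are hosts classed as non-coding. Many such hosts, like ribosomal protein genes, start in a pyrimidine tract (the terminal oligopyrimidine or TOP element), and spliced RNAs of several, GAS5 among them, are bound by ribosomes and degraded by nonsense-mediated decay. GAS5 was named for its higher level in growth-arrested cells.

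To look for such a tract, 60 bases around the annotated start are printed for 8 of the genes (RefSeq start-site entries, GRCh38.p14). SNHG6 and SNHG15 are not printed. Each line runs 5′ to 3′ on the gene's strand, with 30 bases before the start and 30 from it onward. The capitals mark the longest unbroken run of C and T within 20 bases on either side of the start, and in SNHG1 1 of 2 runs of that length.
GAS5 (chr1:173869016-173869075, minus strand): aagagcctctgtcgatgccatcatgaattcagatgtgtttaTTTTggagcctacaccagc
SNHG1 (chr11:62855856-62855915, minus strand): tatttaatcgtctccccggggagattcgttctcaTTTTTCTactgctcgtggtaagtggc
SNHG3 (chr1:28505913-28505972, plus strand): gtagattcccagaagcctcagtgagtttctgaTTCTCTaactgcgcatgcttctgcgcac
SNHG5 (chr6:85678704-85678763, minus strand): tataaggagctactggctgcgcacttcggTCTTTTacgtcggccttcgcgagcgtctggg
SNHG7 (chr9:136728155-136728214, minus strand): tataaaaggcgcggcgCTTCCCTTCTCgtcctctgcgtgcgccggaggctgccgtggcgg
SNHG8 (chr4:118278732-118278791, plus strand): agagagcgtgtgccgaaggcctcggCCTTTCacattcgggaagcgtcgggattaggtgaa
SNHG12 (chr1:28581844-28581903, minus strand): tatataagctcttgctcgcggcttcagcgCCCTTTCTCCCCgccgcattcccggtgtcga
ZFAS1 (chr20:49278612-49278671, plus strand): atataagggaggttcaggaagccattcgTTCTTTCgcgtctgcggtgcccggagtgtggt
A run of at least 6 such bases was present in 7 of the 8 windows, in 38.5% of 27305 start-site entries of the same table, and in 57 of 63 ribosomal protein genes with an entry (90.5%). The runs of SNHG12 (12 bases) and SNHG7 (11 bases) were the longest of the 8, and runs at least as long were held by 4.09% and 5.82% of all entries. The window of GAS5 had a longest run of 4 bases. A run counts wherever it lies in the stretch searched, also where it does not begin the RNA. That of SNHG7 lies wholly before the start, its first base 14 bases upstream. The marked runs of SNHG3, SNHG1 and GAS5 begin at bases 3, 5 and 12 counted from the start. The start of an entry is not always the gene start in GENCODE 29: that of GAS5 lies 163 bases and that of SNHG3 37 bases upstream of it, and those of SNHG12 and ZFAS1 lie 1259 and 464 bases downstream, with at most 53 bases for the other 4. These are matches of letters and show no use of a start.

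The libraries held between 42744729 and 47798920 expected counts. The 10 fibroblast markers summed to between 20673 and 28004 CPM, and 4 of 5 keratinocyte, 4 of 5 endothelial and 4 of 5 melanocyte markers stayed under 1 CPM in every library, with KRT1 and KRT5 at 0. The 5 immune markers summed to 6.34 and 6.03 CPM in the control and 26.4 and 29.9 CPM in the Dox libraries, CD3E being at 0. Most of this sum was CD68, a lysosomal protein of macrophages that other cells also make (6.01 and 5.57 CPM against 23.9 and 26.1 CPM). PTPRC rose from 0.216 and 0.235 CPM to 2.10 and 1.83 CPM, and CD14 did not pass (edgeR adjusted p = 0.336). The sums and the limit of 1 CPM use the plain library total. The values of CD68 and PTPRC are also scaled with TMM factors, so they do not add up to the sums. The part of the rise in immune markers in the results below was not tested. The Dox replicates differed from each other far more than the controls did (chi-square per degree of freedom over genes 60.5 against 2.4), and their log2 ratio varied with the GC content of genes (across 16717 genes, which are not independent replicates, Spearman's rho was 0.60, against 0.02 for the controls).

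Of the 10 host genes, 4 fell in the Dox libraries, 0 rose and 6 did not pass, by edgeR's quasi-likelihood test at an adjusted p under 0.05. Among all 16749 tested genes, 13.8% were lower and 16.5% higher by the same rule (30.3% in either direction). At an unadjusted p under 0.05, 6 host genes were lower and 1 higher, where 20.1% and 22.5% of all tested genes were. The median log2 fold change of the host genes was -0.25, against -0.00 over all tested genes. The 4 that fell were ZFAS1, GAS5, SNHG1 and SNHG5. In CPM (counts scaled to library size with TMM factors), the Dox libraries lay below both controls for 7 host genes and above both for 2, where 34.5% and 34.6% of all tested genes did so (69.1% in either direction).

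**Figure D1:**
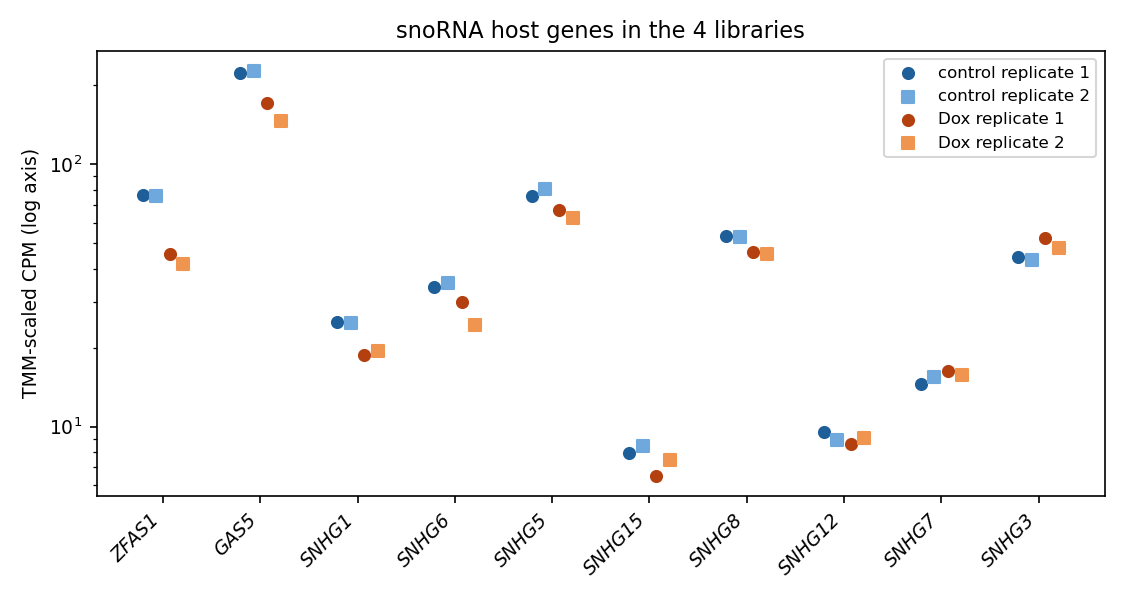
TMM-scaled CPM (log axis) of the 10 snoRNA host genes, with 1 point per library and the genes ordered by their fitted change. The Dox points of ZFAS1 (45.6 and 41.8) sit well under its control points (76.2 and 75.5), whereas those of SNHG12 (8.58 and 9.02) overlap its controls (9.58 and 8.92).

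The first 5 genes host box C/D snoRNAs: ZFAS1, GAS5, SNHG1, SNHG5 and SNHG6. Of these, 4 fell and 1 did not pass, where 13.8% of all tested genes were lower. The Dox libraries were below both controls in all 5, against 34.5% of all tested genes. ZFAS1 (ENSG00000177410.12, chromosome 20, 49278178 to 49295738 in GRCh38, plus strand) hosts SNORD12, SNORD12B and SNORD12C and was first described as antisense to the start of ZNFX1. It stood at 76.2 and 75.5 CPM in the control libraries and at 45.6 and 41.8 CPM in the Dox libraries. The groups did not overlap, and the Dox mean was 42.4% below the control mean as fitted (log2 fold change -0.80, SE 0.08, edgeR adjusted p = 0.000938). Only 5.84% of tested genes had a lower fold change.

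GAS5 (ENSG00000234741.8, chromosome 1, 173863900 to 173868882, minus strand) is the host of a series of box C/D snoRNAs and the most abundant of the 10. Its control libraries held 223 and 227 CPM and its Dox libraries 172 and 146 CPM, from 9286, 10648, 7338 and 6645 counts. Both Dox values were under both control values, and the gap between the Dox replicates (SD 17.7 CPM, n = 2) was wider than that between the controls (SD 3.26 CPM, n = 2). GAS5 fell by 0.50 on the log2 scale (SE 0.09, edgeR adjusted p = 0.0108). SNHG1 (ENSG00000255717.6, chromosome 11, 62851988 to 62855914, minus strand), which carries SNORD22 and SNORD25 to SNORD31, had 25.0 and 24.9 CPM in the control and 18.8 and 19.5 CPM in the Dox libraries. The replicates lay close together, without overlap between the groups, and SNHG1 fell by 0.38 (SE 0.08, edgeR adjusted p = 0.0162).

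SNHG5 (ENSG00000203875.11, chromosome 6, 85660950 to 85678748, minus strand) hosts SNORD50A and SNORD50B. Its values were 75.8 and 80.7 CPM in the control and 66.8 and 62.4 CPM in the Dox libraries, a fall of 0.28 (SE 0.08, edgeR adjusted p = 0.0397). SNHG6 (ENSG00000245910.8, chromosome 8, 66921684 to 66926398, minus strand), the host of SNORD87, had 34.1 and 35.3 CPM in the control and 29.9 and 24.4 CPM in the Dox libraries. All control values were higher, but the Dox replicates were spread, and the gene did not pass (log2 fold change -0.35, 95% interval -0.62 to -0.09, edgeR adjusted p = 0.0554). With the removal of either control library, GAS5 (adjusted p = 0.0659 and 0.0985), SNHG1 (0.200 and 0.212) and SNHG5 (0.249 and 0.460) no longer passed edgeR's test, while ZFAS1 did (0.00228 and 0.00269). SNHG6 passed with DESeq2's Wald test (adjusted p = 0.0483), where SNHG5 did not (0.0533). The grouping by snoRNA class was made with these values known, and the difference between classes was not tested.

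The next 4 genes host box H/ACA snoRNAs: SNHG3, SNHG7, SNHG8 and SNHG15. None of the 4 passed edgeR's test, where 13.8% of all tested genes were lower and 16.5% higher. At an unadjusted p under 0.05, 1 was lower and 1 higher (20.1% and 22.5% of all tested genes). None of the 4 passed with DESeq2 either (11% of all genes lower, 13.7% higher). SNHG3 (ENSG00000242125.3, chromosome 1, 28505980 to 28510892, plus strand), the host of SNORA73A and SNORA73B, had 44.3 and 43.1 CPM in the control and 52.5 and 48.2 CPM in the Dox libraries. Its Dox values were the higher ones (log2 fold change 0.21, 95% interval 0.02 to 0.39, edgeR adjusted p = 0.0923). SNHG7 (ENSG00000233016.6, chromosome 9, 136721366 to 136728184, minus strand), the host of SNORA17A and SNORA17B, went from 14.5 and 15.4 CPM to 16.4 and 15.7 CPM. Here too both Dox values were above the controls, by less than the spread allowed (log2 fold change 0.10, 95% interval -0.11 to 0.32, edgeR adjusted p = 0.428).

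SNHG8 (ENSG00000269893.7, chromosome 4, 118278709 to 118279823, plus strand), the host of SNORA24, had 53.2 and 52.9 CPM in the control and 46.3 and 45.5 CPM in the Dox libraries. The replicates were tight and the Dox values lower (log2 fold change -0.21, 95% interval -0.37 to -0.05, edgeR adjusted p = 0.0600). SNHG15 (ENSG00000232956.8, chromosome 7, 44983023 to 44986961, minus strand), the host of SNORA9, is the least abundant of the 10 per length. Its control libraries held 7.96 and 8.47 CPM and its Dox libraries 6.5 and 7.5 CPM (log2 fold change -0.23, 95% interval -0.53 to 0.07, edgeR adjusted p = 0.209). SNHG12 (ENSG00000197989.14, chromosome 1, 28578538 to 28583132, minus strand) hosts snoRNAs of both classes. It had 9.58 and 8.92 CPM in the control and 8.58 and 9.02 CPM in the Dox libraries, overlapping values (log2 fold change -0.07, 95% interval -0.33 to 0.18, edgeR adjusted p = 0.644). When the GC trend of each library was removed, SNHG6, SNHG8 and SNHG3 also passed (edgeR adjusted p = 0.00324, 0.0112 and 0.0083), for 6 lower and 1 higher host genes, where 23.1% and 23.5% of all genes were called.

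The calls shifted with the settings, and so did those of all genes. The 4 host genes that fell also did so with RLE size factors (13.7% of all genes lower, 16.5% higher). With no filter on low counts SNHG6 joined them (9.85% lower, 10.8% higher), and with DESeq2 it took the place of SNHG5 (11% lower, 13.7% higher). Only ZFAS1 passed a test against a 1.5-fold change (2.87% lower, 4.7% higher). ZFAS1 was also the 1 lower host gene without control replicate 1 (6.23% lower, 8.62% higher) and without control replicate 2 (5.73% lower, 7.83% higher). Without Dox replicate 1, 6 host genes were lower and SNHG3 was higher (26.7% lower, 26% higher), and without Dox replicate 2 these were 7 and 1 (29.1% lower, 27% higher). Fits without a Dox library took their spread from the control pair, which varied far less than the Dox pair. Their calls rest on 1 Dox library, assumed to vary like the controls. With log2(TPM + 0.1), 0 passed in either direction (1.18% lower, 3.8% higher).

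**Figure D2:**
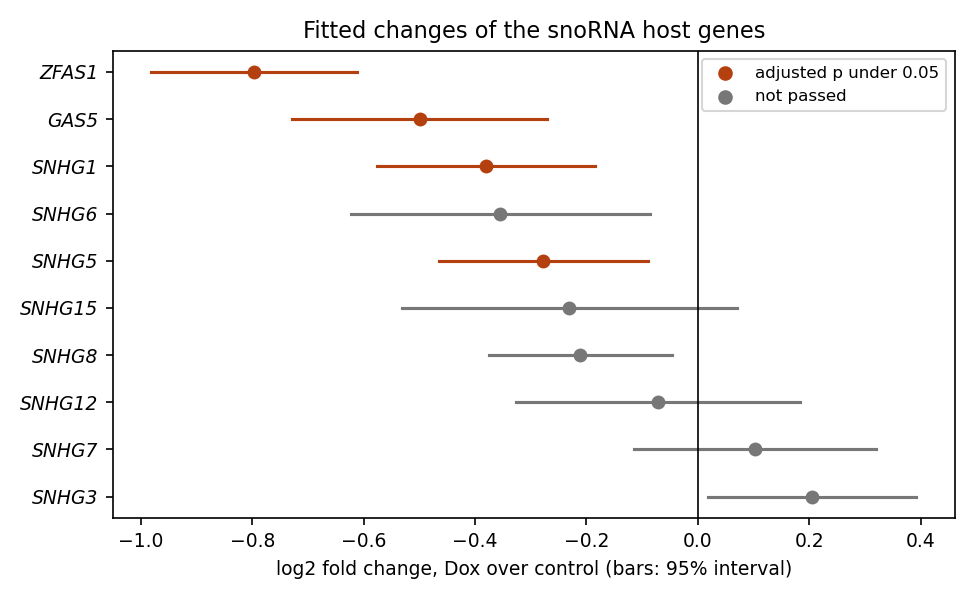
Fitted log2 fold change of each host gene (Dox over control), where bars are 95% intervals from edgeR and colour marks an adjusted p under 0.05. The interval of ZFAS1 runs from -0.98 to -0.61, and those of SNHG15, SNHG12 and SNHG7 include 0.

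Levels of different genes can be compared only per length, for which the deposited TPM, a share of transcripts, was used. By mean TPM over the 4 libraries the order was GAS5 (115), SNHG5 (73.7), SNHG8 (52.9), ZFAS1 (45.1), SNHG6 (28.9), SNHG3 (10.9), SNHG1 (7.38), SNHG7 (6.60), SNHG12 (2.93) and SNHG15 (2.55). The first 2 places and the last 2 were the same in every library. ZFAS1 (55.1 ± 0.884 TPM, SD, n = 2) stood above SNHG8 (52.4 ± 0.205 TPM, SD, n = 2) in the control libraries, and below it in both Dox libraries (35.1 ± 9.16 and 53.3 ± 12.6 TPM, SD, n = 2 each). SNHG1 and SNHG7 also changed places, from 7.87 and 5.76 TPM in the controls to 6.89 and 7.45 TPM in Dox, values that do not differ beyond their Dox SDs of 2.57 and 2.75.

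On the TPM scale the Dox replicates were further apart. All 10 host genes had a higher TPM in Dox replicate 2 than in Dox replicate 1, by 1.28 to 1.97 times, while their CPM differed by at most 0.29 on the log2 scale. The control libraries held 130.3 and 137 TPM of GAS5 and the Dox libraries 82.2 and 111 TPM, and that of ZFAS1 was 54.5 and 55.8 against 28.6 and 41.6. Both stayed below the controls. SNHG8, at 52.6 and 52.3 TPM in the control libraries, stood at 44.4 in Dox replicate 1 and 62.2 in Dox replicate 2, on either side of them. In TPM the groups overlapped for 7 host genes, Dox was lower for 2 (9.43% of all tested genes) and higher for 1, SNHG3 (26.6%).

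Most of the TPM total lies in short RNAs, whose share moved between the Dox libraries. Genes typed snoRNA, snRNA, scaRNA or misc_RNA in GENCODE 29 held 82.5% and 82.3% of TPM in the controls, 84.9% in Dox replicate 1 and 78.8% in Dox replicate 2. Protein-coding genes held 10.4%, 10.8%, 9.11% and 14.9% in the same order. With limma on log2(TPM + 1), 0 host genes were lower (1.18% of all genes) and 0 higher (3.56%). Over all genes, 596 were higher and 198 lower on this scale, against 2764 and 2309 in counts. GAS5 had a log2 difference of -0.48 (limma adjusted p = 0.956) and ZFAS1 of -0.66 (limma adjusted p = 0.688), beside -0.50 and -0.80 in counts. TPM was then rescaled without those short RNA classes and without mitochondrial ribosomal and transfer RNAs, an alternative added after seeing the data. With this rescaled TPM, GAS5 (log2 difference -0.50, limma adjusted p = 0.0392) and ZFAS1 (-0.69, limma adjusted p = 0.0128) passed, beside 3.86% of all genes lower and 10.5% higher. On that scale and on log2(TPM + 1), the other host genes had smaller decreases or larger increases than in the counts, and SNHG12 was higher in Dox.

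**Figure D3:**
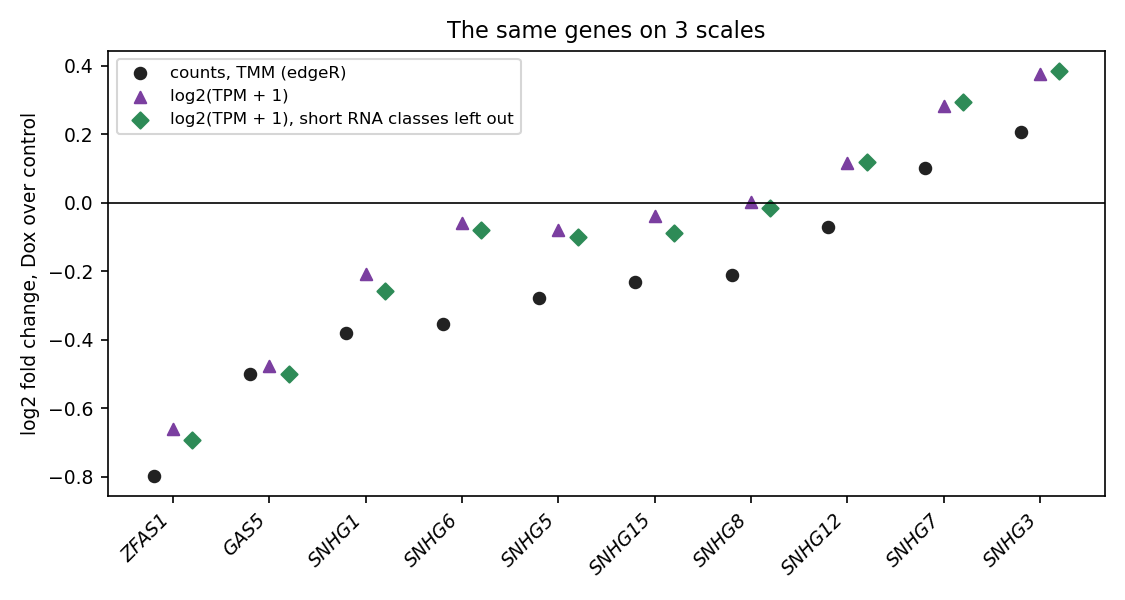
Log2 fold change (Dox over control) of the 10 host genes from counts with TMM scaling, from log2(TPM + 1), and from log2(TPM + 1) after the short RNA classes were left out. The last scale also leaves out mitochondrial ribosomal and transfer RNAs. ZFAS1 and GAS5 are the lowest on all 3 scales, and SNHG12 is at -0.07 on the first and above 0 on the others.

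RSEM gives each gene a mean transcript length weighted by the estimated shares of its transcripts, so this value moves when those shares move. It is described here without a test. An exact two-sided permutation test of 2 against 2 libraries cannot go below p = 0.333, and no model was fitted to lengths. GAS5, with 31 annotated transcripts in the tables, had a mean transcript length of 670 and 668 bases in the control libraries and of 713 and 716 bases in the Dox libraries. The Dox values were 45.3 bases longer on average, against SDs of 0.933 and 2.31 bases (n = 2 each). ZFAS1 was longer by 10.1 bases (583 and 579 against 590.4 and 592). SNHG6 was shorter in Dox (519 and 529 against 491 and 494 bases), as was SNHG12 (1142 and 1156 against 1097 and 1116 bases). In the other 6 host genes the groups overlapped. By effective length, the measure named in the test plan, the groups were the same except that SNHG5 was also shorter. Of 13586 tested genes whose length varied, 16.6% were longer in both Dox libraries than in both controls and 21.2% shorter.

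**Figure D4:**
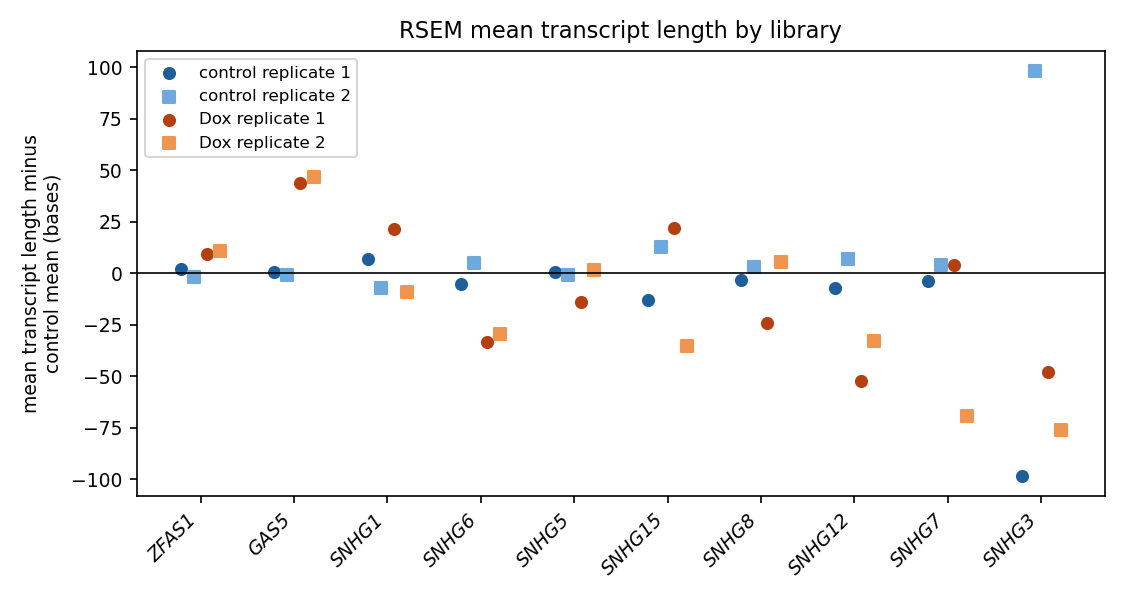
Mean transcript length of each host gene in each library, in bases relative to the mean of its 2 control libraries. Both Dox points of GAS5 lie more than 40 bases above its controls, and the controls of SNHG3 differ from each other (1423 and 1620 bases).

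The snoRNAs themselves were read as separate genes, matched by symbol and by their place inside the host in GENCODE 29. Reads of a retained intron cannot be told from those of a snoRNA in it. Of 35 listed, 21 had such a row, 12 of them with under 20 summed counts. Box C/D snoRNAs made up 11 of those 12 (of 12 with a row), and the only box C/D snoRNA above that was SNORD22. The snoRNAs listed for GAS5 were not analysed here. Of the H/ACA snoRNAs, the pair in SNHG3, the one in SNHG8 and SNORA61 of SNHG12, on which the values below turn most, are printed 5′ to 3′ (GENCODE 29, GRCh38, DNA letters), the capitals marking the ACA box, which lies 3 bases from the 3′ end.
SNORA73A (chr1:28507366-28507571, plus strand): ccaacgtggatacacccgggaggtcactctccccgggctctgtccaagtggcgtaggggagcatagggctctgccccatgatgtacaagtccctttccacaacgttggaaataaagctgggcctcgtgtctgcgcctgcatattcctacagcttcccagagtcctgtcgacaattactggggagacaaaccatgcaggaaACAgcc
SNORA73B (chr1:28508559-28508762, plus strand): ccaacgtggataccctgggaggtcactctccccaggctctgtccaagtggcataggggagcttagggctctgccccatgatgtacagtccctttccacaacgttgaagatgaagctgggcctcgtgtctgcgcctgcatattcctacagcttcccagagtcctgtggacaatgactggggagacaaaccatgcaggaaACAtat
SNORA24 (chr4:118279190-118279320, plus strand): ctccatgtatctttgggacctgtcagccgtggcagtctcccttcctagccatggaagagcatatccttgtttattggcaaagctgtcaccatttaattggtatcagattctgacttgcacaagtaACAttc
SNORA61 (chr1:28579764-28579893, minus strand): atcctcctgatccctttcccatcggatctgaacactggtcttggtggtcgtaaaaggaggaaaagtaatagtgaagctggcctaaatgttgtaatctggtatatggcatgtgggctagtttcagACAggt
SNORA73A and SNORA73B, which act in the processing of ribosomal RNA precursors, are identical at 192 of 206 aligned positions (93.2%), so reads can be split between them.

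Most of these snoRNAs were high in Dox replicate 1 and low in Dox replicate 2. SNORA73A had 844 and 914 CPM in the control libraries, 1246 in Dox replicate 1 and 550.2 in Dox replicate 2. SNORA73B had 740.2 and 802 CPM in the control libraries, 1375 in Dox replicate 1 and 522 in Dox replicate 2. The controls thus lay between the Dox libraries, and neither gene passed (log2 fold changes 0.03, SE 0.34, and 0.30, SE 0.39, edgeR adjusted p = 0.953 and 0.602). Together they had 35.8 and 39.8 counts per count of SNHG3 in the controls, 49.9 in Dox replicate 1 and 22.2 in Dox replicate 2. The gene RCC1 spans SNHG3 and both snoRNAs on the same strand, so reads there may belong to either host. SNORA24 stood at 4.71 and 3.53 CPM in the control and at 8.16 and 3.63 CPM in the Dox libraries. Of 9 snoRNAs with at least 100 summed counts, 8 were higher in Dox replicate 1 than in Dox replicate 2, and 5 had one Dox library above and the other below both controls.

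The same order held across the class, with 110 of 113 tested snoRNA genes higher in Dox replicate 1, and summed snoRNA levels of 22379 and 22093 CPM in the controls against 31859 and 17561 CPM in Dox. Among the host genes, 7 of 10 were also higher in Dox replicate 1 in CPM, but their log2 ratios of Dox replicate 2 to replicate 1 lay within 0.29 of 0, against -1.18 for SNORA73A and -1.40 for SNORA73B. For 5 hosts, the direction of the summed snoRNA level differed with the Dox library used. For the SNHG3 snoRNAs the log2 ratio to control was 0.67 with Dox replicate 1 alone and -0.62 with Dox replicate 2 alone. For those of SNHG7 these ratios were 0.90 and -0.72, for SNHG1 0.68 and -0.38, for SNHG8 0.99 and -0.18, and for SNHG15 0.62 and -0.68.

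SNORA61, an H/ACA snoRNA in SNHG12, was an exception. It had 3.01 and 2.74 CPM in the control and 1.29 and 1.63 CPM in the Dox libraries, from 125, 128, 55.4 and 74.0 expected counts. Both Dox values were below the controls, with replicate 1 the lower, and SNORA61 fell by 0.97 (SE 0.19, edgeR adjusted p = 0.0127). It was the 1 of 10 tested intronic snoRNA rows that passed, where 13.8% of all genes were lower. Its host SNHG12 stayed at -0.07, and the difference between host and snoRNA was not tested. SNORA44 of the same host had 1.00, 1.04, 0.893 and 0.420 CPM in the order control 1, control 2, Dox 1 and Dox 2 (log2 fold change -0.66, SE 0.37, edgeR adjusted p = 0.222). SNORA16A, the third, was at 1.70, 1.49, 1.67 and 1.5 CPM in that order.

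**Figure D5:**
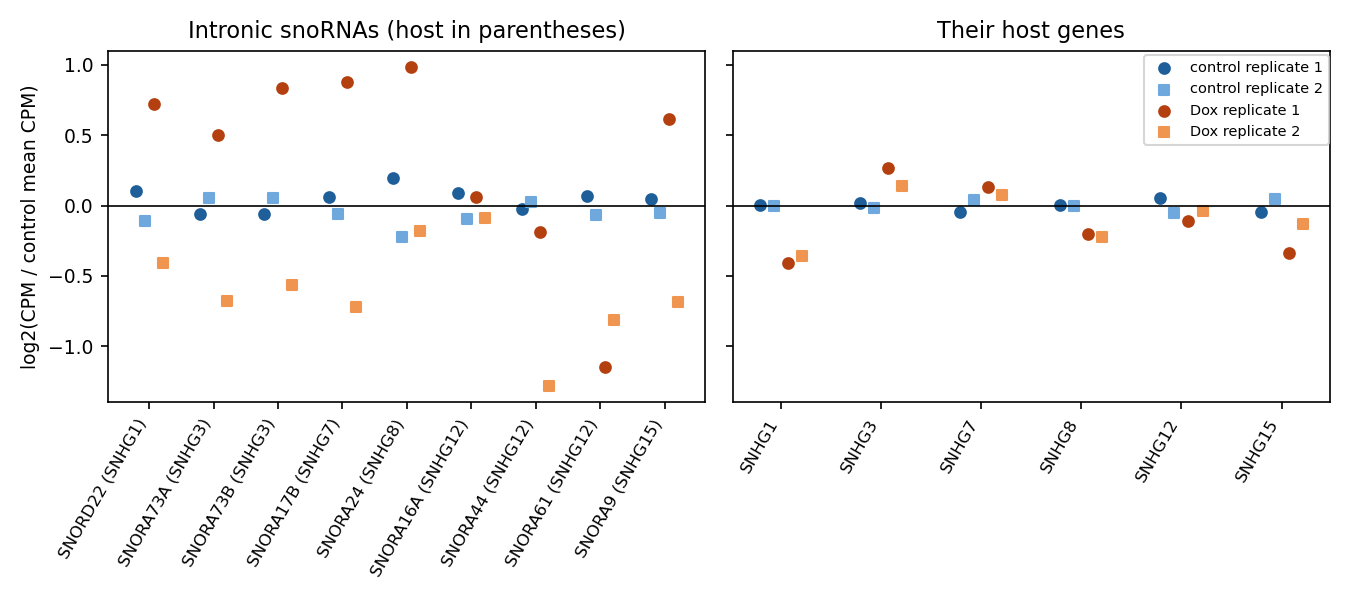
Log2 ratio of CPM to the control mean for the 9 intronic snoRNAs with at least 100 summed counts (left) and for their hosts (right), with 1 point per library. SNORA73A, SNORA73B, SNORA17B, SNORD22 and SNORA9 have Dox replicate 1 above and Dox replicate 2 below the controls, while both Dox points of SNORA61 are low.

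Several host genes share a promoter or overlap with a protein-coding neighbour, and since use of strand is not stated in the sources used here, reads in the overlaps cannot be told apart. SLC3A2, a heavy chain of amino acid transporters, starts 188 bases from SNHG1 on the other strand. It fell from 157 and 162 CPM to 59.3 and 70.7 CPM (log2 fold change -1.30, SE 0.10, edgeR adjusted p = 0.000455), beside -0.38 for SNHG1. ZBTB37, a zinc finger gene opposite GAS5 with 801 bases in common, fell by 0.36 (SE 0.09, edgeR adjusted p = 0.0235), beside a fall of 0.50 for GAS5. ZNFX1, opposite ZFAS1 with an overlap of 249 bases, had 115 and 117 CPM in the control and 131 and 149 CPM in the Dox libraries. Its Dox values were the higher ones, the reverse of ZFAS1, and it did not pass (log2 fold change 0.27, SE 0.09, edgeR adjusted p = 0.0576). RCC1, the nucleotide exchange factor of RAN, spans SNHG3 on the same strand and fell by 0.58 (SE 0.10, edgeR adjusted p = 0.00735), where SNHG3 itself was at 0.21. TRNAU1AP beside SNHG12 (-0.16) and MCMDC2 beside SNHG6 (0.03) did not pass.

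Of 19 other snoRNA hosts tested, 4 fell, 3 rose and 12 missed the threshold, with a median log2 fold change of -0.02, where 13.8% of all genes fell and 16.5% rose. C6orf48, typed protein-coding in GENCODE 29, fell from 116 and 120 CPM to 67.5 and 72.1 CPM (log2 fold change -0.76, SE 0.08, edgeR adjusted p = 0.00106), and EPB41L4A-AS1 fell by 0.60 (SE 0.09). SNHG14, the long host of imprinted snoRNA clusters, rose by 0.58 (SE 0.10), and SNHG4 rose by 0.71 (SE 0.16). Of 35 other protein-coding snoRNA hosts, 5 fell and 30 missed the threshold (median -0.15), with 0 higher (1 at an unadjusted p under 0.05). The mitochondrial chaperone gene HSPA9 fell by 0.57 (SE 0.07) and the ribosomal protein gene RPL5 by 0.25 (SE 0.07).

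Genes known for the same kind of start are read against the same shares, 13.8% lower and 16.5% higher. Of 79 ribosomal protein genes, 7 fell, 1 rose and 71 missed the threshold (median -0.14), the Dox libraries lying below both controls in 54 (34.5% of all genes). FAU fell by 0.41 (SE 0.09) and RPS23 by 0.35 (SE 0.08), and RPS28 rose by 0.31 (SE 0.07). Among 16 TOP genes of translation and related factors, 6 fell, 2 rose and 8 missed the threshold (median -0.22). TPT1, the translationally controlled tumour protein, fell by 0.34 (SE 0.07) and HNRNPA1 by 0.31 (SE 0.07), while PABPC1, the poly(A)-binding protein, rose by 0.75 (SE 0.11) and VIM by 0.45 (SE 0.11). The count of ribosomal protein genes that fell was larger without a Dox library and smaller without a control library. In each such fit the spread came from the pair left whole, and the lone library was assumed to vary like it.

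Genes of the proteins that bind and build snoRNA particles, and of the nucleolus and RNA decay, are set beside the same shares. These are 13.8% lower and 16.5% higher by edgeR's test (20.1% and 22.5% at an unadjusted p under 0.05). Of the 8 core protein genes, 0 were lower and 0 higher by edgeR's test (0 and 0 at an unadjusted p under 0.05, median -0.09), and 0 were lower by DESeq2. Of 13 assembly factors, PIH1D1 fell by 0.53 (SE 0.13), NAF1, which helps assemble H/ACA particles, rose by 0.58 (SE 0.17), and 11 did not pass. Among 25 nucleolar and related factors 1 rose, the transcription factor MYC (0.32, SE 0.09), and 0 were lower by edgeR (2 at an unadjusted p under 0.05). Among 16 factors of nonsense-mediated decay, 2 rose, 2 fell and 12 missed the threshold (median -0.06). UPF2 rose by 0.33 (SE 0.09), while the exon junction proteins EIF4A3 (-0.46, SE 0.07) and RBM8A (-0.35, SE 0.07) fell.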

How the data were processed

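RNA from 4 libraries of BJ fibroblasts, 2 control and 2 Dox, was grouped by the sample titles. The submitters' processing notes list RSEM, STAR, cutadapt and Picard without versions, with hg38 as the build, and the annotation release is not given in the sources used here. Per the file headers, the authors deposited expected counts (RSEM's estimated reads per gene, which need not be whole), TPM, FPKM, which was not used, and transcript lengths. RSEM's TPM is per effective length and sums to one total per library. Every row names a gene. For transcript length the length column was used in place of the planned effective length.

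Expected counts were rounded, filtered with filterByExpr (minimum count 10, minimum total 15), scaled by TMM and tested over all genes with edgeR's quasi-likelihood test, group being the only term. P-values were adjusted by Benjamini and Hochberg's method and called under 0.05. A standard error is the fold change divided by the square root of F. Fold changes on TPM are differences of log2(TPM + 1) or log2(TPM + 0.1), tested with limma (variance trend on the mean), and understate the change of low genes. Of the identifiers, 99.5% matched GENCODE 29 (GRCh38, as hg38), whose 1-based coordinates are given. The scripts were tested on simulated data. R 4.3.3, edgeR 4.0.16, limma 3.58.1 and DESeq2 1.42.0 were used. The host genes, the lists and the rule for named genes (all hosts, their snoRNAs and neighbours, and 2 genes per direction and list with the smallest adjusted p) were chosen with earlier results of these data known. Some genes that the rule names are not reported here. Alternatives were other scalings, filters, tests, TPM, GC-trend offsets, a replicate block and leaving out each library.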

Additional observations from a re-analysis of the deposited data

How the results depend on the processing

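Direction and call were compared over 15 alternatives per host gene. Of 150 values, 109 kept both, 20 lost the call, 16 gained it and 5 changed sign. ZFAS1 was lower in all 15 and passed in 13, and GAS5 was lower in all 15 and passed in 10. The sign changed for SNHG8 (0.00308 with log2(TPM + 1), 0.00278 with log2(TPM + 0.1)) and for SNHG12, at 0.12 with log2(TPM + 1), 0.14 with log2(TPM + 0.1) and 0.12 with rescaled TPM. The median of all tested genes moved to 0.12 with no filter, 0.06 with log2(TPM + 1), 0.13 with log2(TPM + 0.1) and 0.09 with rescaled TPM. The causes were not tested.

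With log2(TPM + 1), log2(TPM + 0.1), glmTreat at 1.5-fold and rescaled TPM in turn, 596, 637, 787 and 1738 of all genes were higher and 198, 198, 480 and 639 lower (2764 and 2309 by edgeR's test), and 0, 0, 1 and 2 host genes were lower. Under those 4, other hosts gave 0, 0, 0 and 2 lower, and ribosomal protein, translation factor, protein-coding host, assembly, decay and intronic snoRNA lists gave 0 lower and nucleolar factors 0 higher. GC-trend offsets gave 3925 higher (23.5%) and 3865 lower genes (23.1%) among all genes, with 6 host genes lower and 1 higher. They gave 23 ribosomal protein, 10 translation factor, 14 protein-coding host, 2 assembly, 4 decay and 1 core protein genes lower and 2 nucleolar genes higher. With no filter, 20 ribosomal protein, 11 protein-coding host and 2 assembly genes were lower and 2 nucleolar genes higher.

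The replicate numbers are not stated to mark a shared culture. Deviations of same-numbered libraries had a correlation of 0.04 over genes, which cannot show whether they shared a culture or a batch. With the replicate block, 2972 of all genes were higher and 2511 lower, and 5 host genes, 3 ribosomal protein, 3 translation factor and 2 protein-coding host genes were lower. With the replicate block and GC-trend offsets, 3852 of all genes were higher and 3832 lower, with 6 host genes lower and 1 higher. In that fit, 15 ribosomal protein, 10 translation factor, 14 protein-coding host, 2 assembly, 4 decay and 1 core protein genes were lower and 2 nucleolar genes higher.

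Leaving out 1 library at a time gave 1368 to 4654 higher and 1000 to 5017 lower genes, 0 to 1 higher and 1 to 7 lower host genes, 1 to 6 lower other hosts, 0 to 61 ribosomal protein, 0 to 12 translation factor, 1 to 25 protein-coding host, 0 to 3 core, 0 to 4 assembly, 0 to 8 decay and 1 to 8 intronic snoRNA genes lower, and 0 to 7 nucleolar genes higher. For all genes and for the host genes the fewest calls came without a control library. The spread is then set by the Dox pair, and the lone control is assumed to vary like it. Without a Dox library the spread is set by the control pair, which varied far less. The lone Dox library is then assumed to vary as little. The order of levels by TPM was the same in each, and with counts per kilobase.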
